A study of Homo sapiens with 8 samples.

Results

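Fibroblast growth factor (FGF) signalling was described through 9 genes, the ligand genes FGF20, FGF9, FGF18 and FGF19 and the receptor genes FGFR1, FGFR2, FGFR3, FGFR4 and FGFRL1. They were chosen by symbol from a table of 18656 genes, and all 9 were found in it. FGF20, FGF9 and FGF18 were included as known targets of the Wnt pathway. Of the 9, 8 had a TPM (the RNA level per transcript length, scaled to a fixed total per library) of 1 or more in at least 2 libraries and entered the statistical fit with 11894 genes in all. FGFR2 did not.

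The libraries came from SW480, an established human colorectal cancer line. Each group had 2 libraries: cells transfected with small interfering RNA (siRNA) against TCF7L2 for 24, 48 or 72 h, and a control with a negative-control siRNA whose label is 0 h. All cells grew in serum-containing medium and received siRNA by a lipid reagent. The control was taken at 0 h only, so the effect of the siRNA and that of time cannot be told apart. Whether the 2 libraries of a group were separate cultures is not stated, so the spread behind the p-values is that between these libraries and could be technical. The siRNA's own sequence is not used here.

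FGF ligands bind receptor tyrosine kinases at the cell surface together with heparan sulfate chains. The activated receptor signals through adaptor proteins to the RAS-MAPK and PI3K pathways and to phospholipase C gamma, and induces its own inhibitors, among them the Sprouty proteins. FGFR1 to FGFR4 carry an intracellular kinase, whereas FGFRL1 binds ligand but lacks that kinase domain. Most FGFs act locally. FGF19 is a hormone of the intestine that acts on FGFR4 with the co-receptor beta-Klotho and restrains bile acid synthesis in the liver. TCF7L2 is a transcription factor through which beta-catenin regulates Wnt target genes in the intestinal epithelium.

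The libraries carried epithelial transcripts and a partial loss of the targeted transcript. The depth behind these values is unknown, since TPM do not hold it, and no counting interval could be given. TCF7L2 had 6.86 and 7.47 TPM at 0 h, 5.82 and 5.05 after 24 h, 4.92 and 4.07 after 48 h, and 4.07 and 3.53 after 72 h. At 72 h against 0 h the log2 fold change of TCF7L2 was -0.58 ± 0.11 (SE; limma adjusted p = 0.00197). The loss was already -0.56 ± 0.11 after 48 h (0.00725 in the same test). After 24 h it was -0.26 ± 0.11, which did not pass 0.05 (0.288). Between 48 h and 72 h the scaled level of TCF7L2 changed by -0.02 (95% interval -0.28 to 0.23). On the TPM as deposited this difference was -0.19 ± 0.17, which did not pass either. The epithelial gene EPCAM was at 428 to 599 TPM, while PTPRC, CD3E, PECAM1 and CDH5 of leukocytes and endothelium were below 1 TPM in all 8 libraries. The 11 markers of other cell types summed to 15.6 to 19.0 TPM in the control and 24 h libraries, 36.8 to 40.8 TPM at 48 h and 58.6 to 75.9 TPM at 72 h, mostly through LUM and CD68. At 72 h 4 of the 6 in the fit rose and 0 fell (median log2 change 1.25). Without the second 72 h library the median was 0.55, for the 5 still in the fit. COL3A1, 1 of the 4, reached 1 TPM only in the 72 h libraries, so it could hardly have been called lower. Of 10 epithelial genes 7 rose and 1 fell, and on the TPM as deposited 3 rose and 1 fell. KRT20 and CEACAM5, among the rises in both cases, reached 1 TPM only in libraries of 48 h and 72 h. They could hardly have been called lower. Among all genes 25.8% rose and 26.2% fell. The part of the other-cell markers in the results below was not tested. Listed TPM summed to 352455.7 in the second 72 h library and to 448107.5 to 485601.5 in the other 7, and this library stood apart. Fold changes were therefore computed after dividing each library by its median ratio to the mean profile, while TPM are given as deposited. The divisor was 0.804 for the second 72 h library and 0.987 to 1.07 for the others. The median log2 change of all genes at 72 h was 0.00 after this scaling and -0.19 on the TPM as deposited.

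FGF20, FGF19, FGFR4 and FGFRL1 changed over the time course, FGF20 upward and the other 3 downward. A gene is called changed here when its limma p-value, adjusted over all 11894 genes by Benjamini-Hochberg, is under 0.05. At 72 h against 0 h 4 of the 8 genes were called, 1 higher and 3 lower. Among all genes 52% were called in that comparison, 25.8% higher and 26.2% lower, so after scaling the share of called members lay near that of all genes. On the TPM as deposited 7 of the 8 were called, 1 higher and 6 lower, beside 41.8% of all genes, 10.5% higher and 31.2% lower. The share of higher calls among all called genes was 25.2% as deposited and 49.6% after scaling. At 48 h FGF20, FGF19 and FGFRL1 were called, 3 of 8, against 23.5% of all genes. At 24 h 0 of 8 were called, against 1.08% of all genes by the same limma test. FGF20, FGF19 and FGFR3 had unadjusted p-values under 0.05 at 24 h, 3 of the 8, as did 16.5% of all genes. The median log2 change of the 8 at 72 h was -0.29, against 0.00 for all genes.

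**Figure D1:**
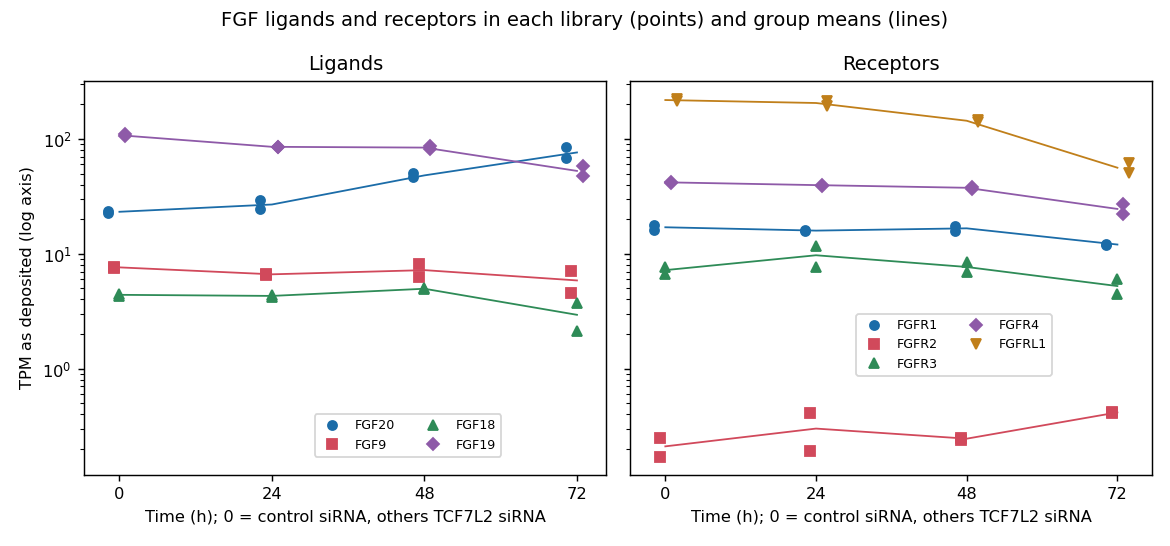
TPM as deposited on a log axis against time in hours for the ligand genes (left) and the receptor genes (right); points are libraries, 2 per time, and lines join group means. FGF20 lies above FGF19 at 72 h and below it at every earlier time, and FGFRL1 descends from the highest level of all 9 genes.

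The order of the levels turned within the set. TPM are normalised for length, so they can be set side by side between genes. At 0 h FGFRL1 had the highest level (219 ± 6.93 TPM, SD, n = 2), followed by FGF19 (108 ± 2.23), FGFR4 (42.0 ± 0.856), FGF20 (23.2 ± 0.615) and FGFR1 (17.0 ± 1.11). FGF9 (7.62 ± 0.12 TPM) and FGFR3 (7.21 ± 0.714) overlapped between libraries, and FGF18 (4.39 ± 0.127) and FGFR2 (0.21 ± 0.0566) were lowest. At 72 h FGF20 came first with 76.4 ± 11.9 TPM. FGFRL1 (56.2 ± 8.13 TPM) and FGF19 (52.7 ± 7.75) overlapped between libraries at 72 h, but FGFRL1 was the higher within each library. After scaling the 2 genes lay apart, with 59.8 and 62.7 against 56.2 and 58.7. FGF9 (5.86 ± 1.82) and FGFR3 (5.24 ± 1.1) also overlapped between libraries at 72 h. FGF9 was the higher within each, though narrowly in the second (4.57 against 4.46 TPM), and the 2 still overlapped after scaling. FGFR4 had 24.6 ± 3.44 TPM, FGFR1 12.0 ± 0.156, FGF18 2.94 ± 1.16 and FGFR2 0.415 ± 0.00707.

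Of the ligand genes FGF20, FGF9, FGF18 and FGF19, the first had the largest change at 72 h. FGF20 encodes a secreted ligand of the FGF9 subfamily (ENSG00000078579, GRCh38 chromosome 8, 16992169 to 17002181, minus strand). It had 23.7 and 22.8 TPM at 0 h, 29.4 and 24.4 after 24 h, 50.1 and 46.4 after 48 h, and 84.8 and 68.0 after 72 h. Both libraries of every siRNA time lay above both control libraries. The same held for 10.8% of all genes at 24 h, 30.7% at 48 h and 17.4% at 72 h. In either direction the libraries of the groups were apart in 57.5% of all genes at 24 h, 66% at 48 h and 64.7% at 72 h. For the falls described further on, both libraries lay below both control libraries in 46.7%, 35.3% and 47.4% of all genes at these times. Against 0 h the log2 change of FGF20 was 0.29 ± 0.08 after 24 h (limma adjusted p = 0.121), 1.03 ± 0.08 after 48 h (adjusted p = 7.11e-05) and 1.88 ± 0.08 after 72 h (adjusted p = 2.5e-07). The last is a 3.69-fold rise, and 63 of 11894 genes, FGF20 included, rose as much or more. FGF20 also differed between consecutive siRNA times, comparisons in which 14% (48 h against 24 h) and 39.9% (72 h against 48 h) of all genes were called. It was higher at 48 h than at 24 h by 0.74 ± 0.08 (adjusted p = 0.000836) and higher at 72 h than at 48 h by 0.85 ± 0.08 (adjusted p = 8.68e-05).

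FGF19 moved the other way. FGF19 (ENSG00000162344, chromosome 11, 69698232 to 69704642, minus strand) had 106 and 110 TPM at 0 h, 85.1 and 85.9 after 24 h, 82.1 and 86.3 after 48 h, and 58.2 and 47.3 after 72 h. The 24 h and 48 h libraries overlapped below the control, and the 72 h libraries lay below them. The log2 change against 0 h was -0.24 ± 0.05 after 24 h (limma adjusted p = 0.0567), -0.35 ± 0.05 after 48 h (adjusted p = 0.00139) and -0.81 ± 0.05 after 72 h (adjusted p = 1.61e-06). Between 72 h and 48 h it was -0.46 ± 0.05 (adjusted p = 0.000133), and between 48 h and 24 h -0.11 ± 0.05 (adjusted p = 0.161). On the TPM as deposited, where the SE was larger, FGF19 was not called at 48 h (-0.36 ± 0.16, adjusted p = 0.185). Without the first or the second 72 h library it was called at 24 h (adjusted p = 0.0378 and 0.0384).

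FGF19 lies in a cluster on chromosome 11 with other genes that were measured. CCND1, which encodes cyclin D1, ends 43.8 kb to one side, and FGF4 and FGF3 lie 66.4 and 105.3 kb to the other. They were chosen for their position. FGF3 had 42.2 and 42.7 TPM at 0 h, 37.4 and 38.6 after 24 h, 42.1 and 45.2 after 48 h, and 39.5 and 28.0 after 72 h, with a log2 change after 72 h of -0.13 ± 0.06 (limma adjusted p = 0.118). FGF4 was at 0 to 0.1 TPM throughout. CCND1 fell by 0.70 ± 0.06 on the log2 scale at 72 h (adjusted p = 1.18e-05). A ratio within a library does not depend on how libraries are scaled. The ratio of FGF19 to FGF3 was 2.52 and 2.57 at 0 h, 2.27 and 2.22 after 24 h, 1.95 and 1.91 after 48 h, and 1.47 and 1.69 after 72 h, without overlap between times.

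FGF9 and FGF18, the other Wnt-linked ligand genes, did not pass the test against 0 h at any time. FGF9 encodes a ligand of the same subfamily as FGF20 (ENSG00000102678, chromosome 13, 21671383 to 21704498, plus strand). It had 7.70 and 7.53 TPM at 0 h, 6.67 and 6.58 after 24 h, 8.09 and 6.32 after 48 h, and 7.15 and 4.57 after 72 h. The libraries of 0 h and 48 h overlapped, and those of 72 h spread widely below the control. The log2 change of FGF9 at 72 h was -0.17 with a 95% confidence interval of -0.44 to 0.11 (limma adjusted p = 0.281).

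FGF18 encodes a ligand of the FGF8 subfamily (ENSG00000156427, chromosome 5, 171419656 to 171457623, plus strand). It had 4.48 and 4.30 TPM at 0 h, 4.19 and 4.40 after 24 h, 5.02 and 4.90 after 48 h, and 3.76 and 2.12 after 72 h. The 48 h libraries were the highest and the 72 h ones the lowest. Its log2 change at 72 h against 0 h was -0.32 (95% interval -0.60 to -0.05; limma adjusted p = 0.0506), just short of the threshold. With the TPM as deposited FGF18 was called at 72 h (-0.48 ± 0.17, adjusted p = 0.0119), as it was after quantile normalization (-0.45 ± 0.13, adjusted p = 0.0156) and without the first 72 h library (-0.49 ± 0.11, adjusted p = 0.00727). Without the second 72 h library the change of FGF18 was -0.15. At 72 h against 48 h FGF18 fell by 0.47 ± 0.12 (adjusted p = 0.0134). That call was lost when the first 48 h library (adjusted p = 0.064), the second 48 h library (0.0516) or the second 72 h library (0.0733) was left out.

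The known tie of FGF18 and others to Wnt signalling makes the letters near their starts of interest, since TCF/LEF factors bind short motifs of known letters. RefSeq promoter windows of GRCh38.p14 were found for 5 of the 9 genes, and not for FGF20, FGF9, FGF19 and FGFR1. In the 250 bases before each start, 4 motifs were searched on both strands: CTTTGAA, which was in 3.8% of 35116 RefSeq windows of that length, CTTTGAT, which was in 2.26%, CTTTGTA, which was in 2.35%, and CTTTGTT, which was in 4.5%. At least 1 of the 4 was in 12% of these windows, each window counting once. Of the 10 windows of these 5 genes 3 held a match, namely those of FGF18 and FGFRL1, each with CTTTGAT, and 1 of 5 windows of FGFR2, with CTTTGTA on the opposite strand. FGFR3, with 1 window, and FGFR4, with 2, held none. The match in FGF18 begins 174 bases before the start and that in FGFRL1 160 bases before. The FGFRL1 window lies within exons of other annotated transcripts of that gene, so only 30 bases around the match are shown. The windows are given 5′ to 3′ on the plus strand with the match in capitals, for FGF18 at chr5:171419397-171419646 and for FGFRL1 at chr4:1012293-1012322. A match is a description of letters and no evidence of binding.
FGF18: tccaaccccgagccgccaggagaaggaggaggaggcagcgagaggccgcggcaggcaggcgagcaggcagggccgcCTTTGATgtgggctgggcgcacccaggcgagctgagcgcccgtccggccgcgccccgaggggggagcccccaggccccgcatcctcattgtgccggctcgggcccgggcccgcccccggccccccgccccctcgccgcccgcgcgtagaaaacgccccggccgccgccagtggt
FGFRL1: cctttgtctgcCTTTGATacccacagcttc

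Among the receptors, FGFRL1 fell most. The gene (ENSG00000127418, chromosome 4, 1009936 to 1026897, plus strand) encodes the receptor without a kinase domain. It had 223 and 214 TPM at 0 h, 216 and 196 after 24 h, 147 and 141 after 48 h, and 62 and 50.5 after 72 h. The control and 24 h libraries overlapped, and each later pair lay below the one before. The log2 change of FGFRL1 against 0 h was 0.01 ± 0.06 after 24 h (limma adjusted p = 0.953), -0.59 ± 0.06 after 48 h (adjusted p = 0.000203) and -1.73 ± 0.06 after 72 h (adjusted p = 5.95e-08). Its level at 72 h was 0.302 times that of the control, and 31 of 11894 genes, FGFRL1 included, fell as much or more. FGFRL1 also fell between consecutive times, by 0.60 ± 0.06 at 48 h against 24 h (adjusted p = 0.000327) and by 1.14 ± 0.06 at 72 h against 48 h (adjusted p = 3.43e-06). In bulk RNA, fewer cells with a transcript and less of it per cell cannot be told apart.

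FGFR4 was the other receptor gene called. FGFR4 (ENSG00000160867, chromosome 5, 177086886 to 177098144, plus strand), the receptor through which FGF19 acts, had 42.6 and 41.4 TPM at 0 h, 39.3 and 40.0 after 24 h, 36.7 and 38.5 after 48 h, and 27.0 and 22.2 after 72 h. The last 2 libraries lay apart from the other 6. Among all genes 47.4% had both 72 h libraries below both control libraries. The log2 change against 0 h was 0.02 ± 0.06 after 24 h (limma adjusted p = 0.925), -0.15 ± 0.06 after 48 h (adjusted p = 0.0917) and -0.54 ± 0.06 after 72 h (adjusted p = 5.32e-05). At 72 h against 48 h it fell by 0.39 ± 0.06 (adjusted p = 0.000749). KLB, the gene of beta-Klotho, which was singled out after its values were seen, was at 0.28 to 0.58 TPM in all libraries and did not enter the fit.

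FGFR1 and FGFR3 were not called against 0 h, and FGFR2 was too low to enter the fit. FGFR1 (ENSG00000077782, chromosome 8, 38400215 to 38468834, minus strand), a widely expressed kinase receptor, had 16.2 and 17.8 TPM at 0 h, 15.7 and 16.1 after 24 h, 15.8 and 17.5 after 48 h, and 12.2 and 11.9 after 72 h. Both 72 h libraries were the lowest, and the log2 change of FGFR1 at 72 h was -0.26 (95% interval -0.49 to -0.02; limma adjusted p = 0.0623). Without scaling FGFR1 was called (-0.47 ± 0.16, adjusted p = 0.0121), as it was without the second 72 h library (-0.42 ± 0.09, adjusted p = 0.00685). Without the first 72 h library its change was -0.10. FGFR1 overlaps LETM2 on the opposite strand, which reached 2.91 TPM, and whether counting used strand is not stated, so reads of the pair may not have been told apart.

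FGFR3 (ENSG00000068078, chromosome 4, 1793293 to 1808872, plus strand), a kinase receptor whose gene lies 766.4 kb from FGFRL1, had 6.70 and 7.71 TPM at 0 h, 11.7 and 7.74 after 24 h, 8.46 and 6.89 after 48 h, and 6.01 and 4.46 after 72 h. A single 24 h library stood above the other 7. The log2 change was 0.45 ± 0.16 at 24 h (limma adjusted p = 0.202) and 0.19 ± 0.14 without that library. At 72 h it was -0.22 with a 95% interval of -0.58 to 0.14 (adjusted p = 0.284), and on the TPM as deposited FGFR3 was called (-0.40 ± 0.16, adjusted p = 0.0342). FGFR2 (ENSG00000066468, chromosome 10, 121478334 to 121598458, minus strand), the receptor typical of many epithelia, was at 0.17 and 0.25 TPM at 0 h, 0.41 and 0.19 after 24 h, 0.25 and 0.24 after 48 h, and 0.41 and 0.42 after 72 h. In a fit of 17894 genes without a filter its log2 change at 72 h was 0.28 ± 0.09 (adjusted p = 0.041), at levels whose read support is unknown.

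**Figure D2:**
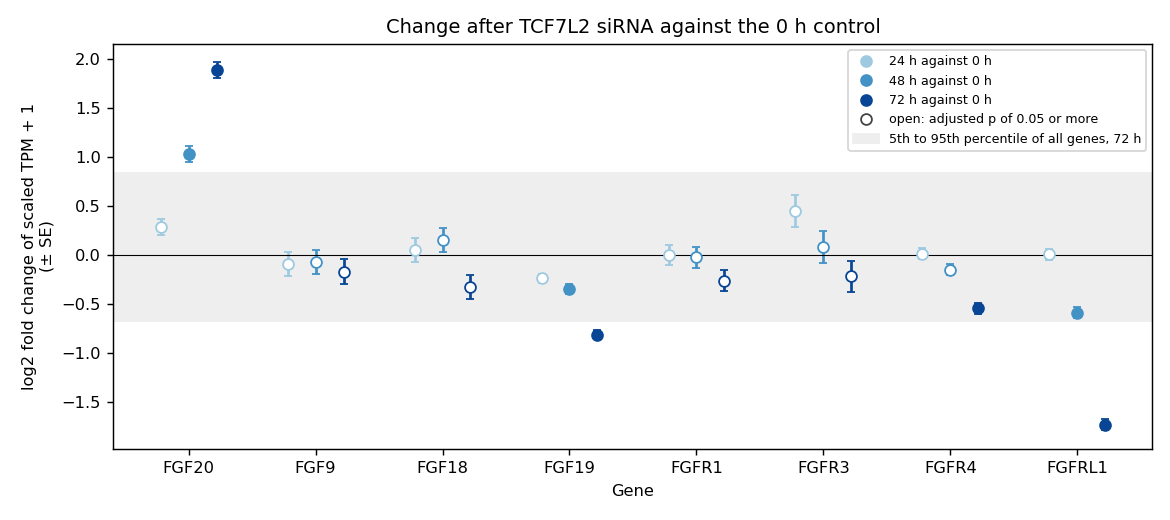
Log2 fold change of scaled TPM + 1 against the 0 h control, with SE bars, for the 8 genes in the fit at 24, 48 and 72 h; filled points have an adjusted p under 0.05 and the grey band holds the 5th to 95th percentile of all genes at 72 h (-0.67 to 0.84). At 72 h FGF20 at 1.88 lies above the band, FGF19 at -0.81 and FGFRL1 at -1.73 lie below it, and FGFR4 at -0.54 lies within it.

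The balance within the set shifted in ratios that no library scaling can alter. FGF20 to FGF19 was 0.222 and 0.208 at 0 h, 0.346 and 0.283 after 24 h, 0.61 and 0.537 after 48 h, and 1.46 and 1.44 after 72 h. The summed TPM of the 4 ligand genes was 121 to 154 over all libraries, with 142 and 144 at 0 h and 154 and 122 at 72 h. Unlike a ratio, this sum does depend on library scaling. The 122 TPM are of the second 72 h library, whose divisor was 0.804, so the deposited sums do not show whether the total changed. FGF20 made up 55.1 and 55.7% of that sum at 72 h, against 16.6 and 15.8% at 0 h, and FGF19 37.8 and 38.8% at 72 h, against 74.8 and 76% at 0 h. The ratio of FGFRL1 to the sum of FGFR1 to FGFR4 was 3.4 and 3.18 at 0 h, 3.22 and 3.06 after 24 h, 2.41 and 2.24 after 48 h, and 1.36 and 1.3 after 72 h. The 72 h ratios lay apart from those of the control in both cases. With 2 libraries against 2 an exact permutation test cannot go below p = 0.333 (two-sided), so none is given for the ratios.

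Among the kinase receptors FGFR4 had the highest level in all 8 libraries. It made up 59.3 and 56.9% of the summed TPM of FGFR1 to FGFR4 at 72 h, against 64.8 and 61.6% at 0 h. FGFR1 made up 26.7 and 30.6% at 72 h, against 24.7 and 26.5% at 0 h, and FGFR3 13.2 and 11.4%, against 10.2 and 11.5%. The sum itself was 45.6 and 39.0 TPM at 72 h, against 65.7 and 67.1 TPM at 0 h.

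**Figure D3:**
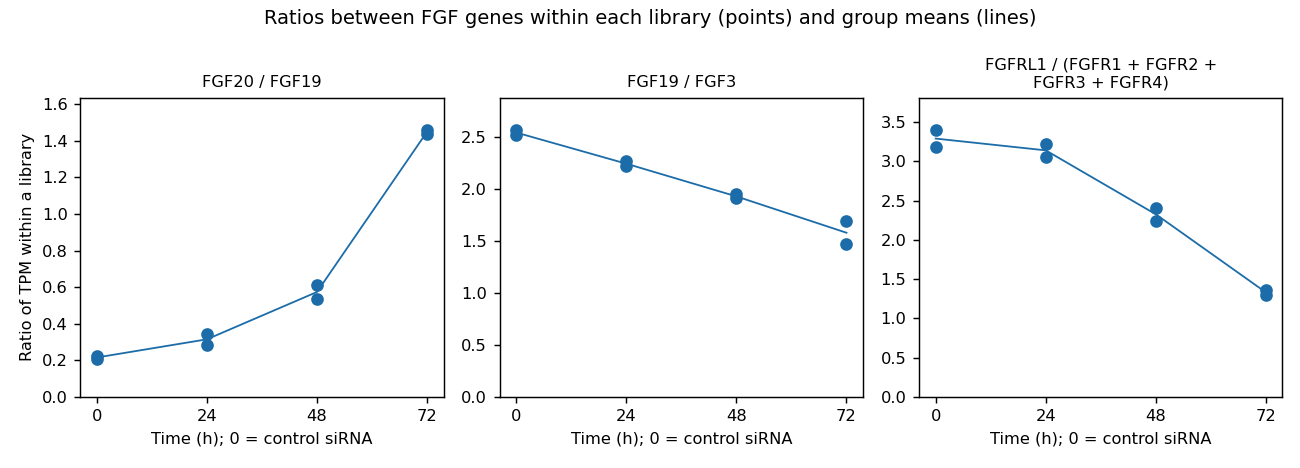
Ratio of TPM within each library against time in hours for FGF20 to FGF19, FGF19 to FGF3, and FGFRL1 to the sum of FGFR1 to FGFR4; points are libraries and lines join the group means. The first ratio is 1.46 and 1.44 at 72 h against 0.222 and 0.208 at 0 h, and the last is 1.36 and 1.3 against 3.4 and 3.18.

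For 5 members the group means spanned at least 0.5 on the log2 scale, and the genes with the most similar profile were sought among 3549 others with such a span, by Pearson's r over the 8 libraries. These values describe likeness and have no test. FGF20 was most like MRVI1 (r = 0.999), ABHD2 (0.996), a lipid hydrolase gene, and the homeobox gene HOXB8 (0.996). MRVI1 was low, with 3.01 and 2.32 TPM at 72 h, against 0.40 and 0.34 TPM at 0 h. It reached 1 TPM only in libraries of 48 h and 72 h and so entered the fit through the times at which it was higher. HOXB8 had 42.2 and 32.8 TPM at 72 h, against 5.77 and 5.56 TPM at 0 h. FGFRL1 was most like the transcription factor gene ATF5 (0.997), the calcium channel gene TRPV6 (0.997) and the proteasome activator gene PSME3 (0.997). ATF5 had 27.1 and 22.8 TPM at 72 h, against 120.0 and 115 TPM at 0 h, and TRPV6 6.06 and 4.31 TPM at 72 h, against 32.1 and 33.8 TPM at 0 h. FGF19 was most like CMPK1 (0.997), a nucleotide kinase gene, and RC3H2 (0.996). FGFR4 was most like ALKBH5 (0.997), an RNA demethylase gene, EXOSC8 (0.996) of the RNA exosome and AIMP2 (0.995). FGFR3, whose span came from 1 high library, was most like LIPT2 (0.919), SCN9A (0.904) and C5 (0.902).

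Of the 14 other secreted FGF ligand genes, 4 entered the fit and the others stayed below 1 TPM in every library. FGF21, a metabolic hormone, had 12.0 and 10.9 TPM at 0 h, 7.28 and 8.05 after 24 h, 7.13 and 6.75 after 48 h, and 1.15 and 0.76 after 72 h. The 72 h libraries were lowest by a wide margin, and the log2 change at 72 h was -2.53 ± 0.10 (limma adjusted p = 1.74e-07). FGF1, a ligand for all the kinase receptors, rose, with 1.06 and 1.08 TPM at 72 h against 0.29 and 0.35 TPM at 0 h (0.74 ± 0.13, adjusted p = 0.00105). FGF1 reached 1 TPM only in libraries of 48 h and 72 h. It thus entered the fit through the times at which it was higher and could hardly have been called lower. FGF3, above, and FGF17, of the FGF8 subfamily (-0.13 ± 0.16, adjusted p = 0.538), did not pass. Among the 4 intracellular FGF homologous factors, which regulate sodium channels and are not secreted, 2 of 3 in the fit rose at 72 h and 0 fell. Among all genes 25.8% rose and 26.2% fell. FGF14 reached 1 TPM only in libraries of 48 h and 72 h, so it could hardly have been counted as a fall. FGF13 had 5.08 and 4.99 TPM at 72 h, against 3.25 and 3.06 TPM at 0 h (0.72 ± 0.13, adjusted p = 0.00112), and FGF14 had 1.09 and 1.40 TPM, against 0.31 and 0.52 TPM (0.77 ± 0.22, adjusted p = 0.0163). Without the second 72 h library 1 of these 3 was called.

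Of 11 co-receptor and FGF-binding genes 4 entered the fit, and at 72 h 1 rose and 0 fell (median log2 change 0.13, against 0.00 for all genes). Without scaling 1 rose and 1, NCAM1, fell (median -0.05). Among all genes 25.8% rose and 26.2% fell after scaling, and 10.5% rose and 31.2% fell without it. The 1 that rose was FLRT3, a membrane protein that binds FGF receptors, with 6.79 and 5.47 TPM at 72 h, against 1.86 and 1.77 TPM at 0 h (1.5 ± 0.12, limma adjusted p = 1.03e-05). Genes of heparan sulfate synthesis and of the proteoglycans that carry it went both ways, with 5 higher and 4 lower of 16 at 72 h (median 0.13), and 2 higher and 4 lower on the TPM as deposited (median -0.08). SDC1, which encodes syndecan-1, had 20.3 and 16.5 TPM at 72 h, against 47.9 and 48.3 TPM at 0 h (-1.13 ± 0.06, adjusted p = 4.16e-07). The glypican gene GPC1 fell by 0.60 ± 0.05, while GPC4 rose by 1.05 ± 0.12, to 3.36 and 3.24 TPM at 72 h, against 1.25 and 1.38 TPM at 0 h. GLCE, the epimerase that modifies the chain, rose by 0.87 ± 0.07, to 23.5 and 19.2 TPM at 72 h, against 12.3 and 13.8 TPM at 0 h.

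Adaptors and effectors of the receptors were measured in 16 genes, of which 6 rose and 2 fell at 72 h (median 0.18). Among all genes 52% were called, 25.8% higher and 26.2% lower. On the TPM as deposited 1 rose and 2 fell (median 0.01), beside 10.5% of all genes higher and 31.2% lower. GRB10, an adaptor that binds several receptor tyrosine kinases, had 3.80 and 3.69 TPM at 72 h, against 19.1 and 20.2 TPM at 0 h (-1.93 ± 0.10, limma adjusted p = 5.81e-07). PIK3R1, the regulatory subunit of PI3K, had 22.5 and 16.8 TPM, against 10.2 and 11.5 TPM (1.00 ± 0.11, adjusted p = 5.32e-05). PLCG1, the gene of phospholipase C gamma 1, and STAT3, a transcription factor, were higher after scaling by 0.48 ± 0.06 and 0.43 ± 0.08, but neither was called on the TPM as deposited (adjusted p = 0.175 and 0.261).

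Feedback inhibitors and transcriptional targets of FGF and RAS-MAPK signalling were all in the fit, 18 genes. At 72 h 10 rose and 3 fell (median 0.30), beside 25.8% of all genes higher and 26.2% lower. SPRED3, 1 of the 10, reached 1 TPM only in libraries of 48 h and 72 h, so it could hardly have been called lower. On the TPM as deposited 4 rose and 4 fell (median 0.09), beside 10.5% of all genes higher and 31.2% lower. Many of these genes also respond to other growth factor receptors. SPRY1, a Sprouty inhibitor, had 7.95 and 5.61 TPM at 72 h, against 3.25 and 3.6 TPM at 0 h (0.98 ± 0.10, limma adjusted p = 3.75e-05). PHLDA1, an immediate response gene, had 372 and 306 TPM, against 213 and 225 TPM (0.84 ± 0.05, adjusted p = 1.17e-06). ETV4, an ETS factor downstream of FGF signalling, had 36.3 and 30.4 TPM, against 75.7 and 74.5 TPM (-0.94 ± 0.05, adjusted p = 1.3e-06), and CCND1 fell as given above. The ETS factor genes ETV1 and ETV5 of the same list went the other way after scaling. They rose by 0.45 ± 0.07 (adjusted p = 0.000639) and 0.25 ± 0.07 (adjusted p = 0.0141). Neither was called on the TPM as deposited (adjusted p = 0.24 and 0.88).

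DUSP6, the MAPK phosphatase widely used as a readout of FGF signalling, was the only gene of these pathway lists called at 24 h. It had 73.6 and 68.4 TPM at 0 h, 47.7 and 46.1 after 24 h, 73.9 and 71.5 after 48 h, and 62.5 and 50.6 after 72 h. The 24 h libraries lay below all others, and the 48 h libraries overlapped with the control. Among all genes 46.7% had both 24 h libraries below both control libraries. The log2 change of DUSP6 at 24 h was -0.49 ± 0.06 (limma adjusted p = 0.00939), and -0.59 with an adjusted p of 0.0542 on the TPM as deposited. At 72 h it was -0.11 ± 0.06 (adjusted p = 0.12).

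**Figure D4:**
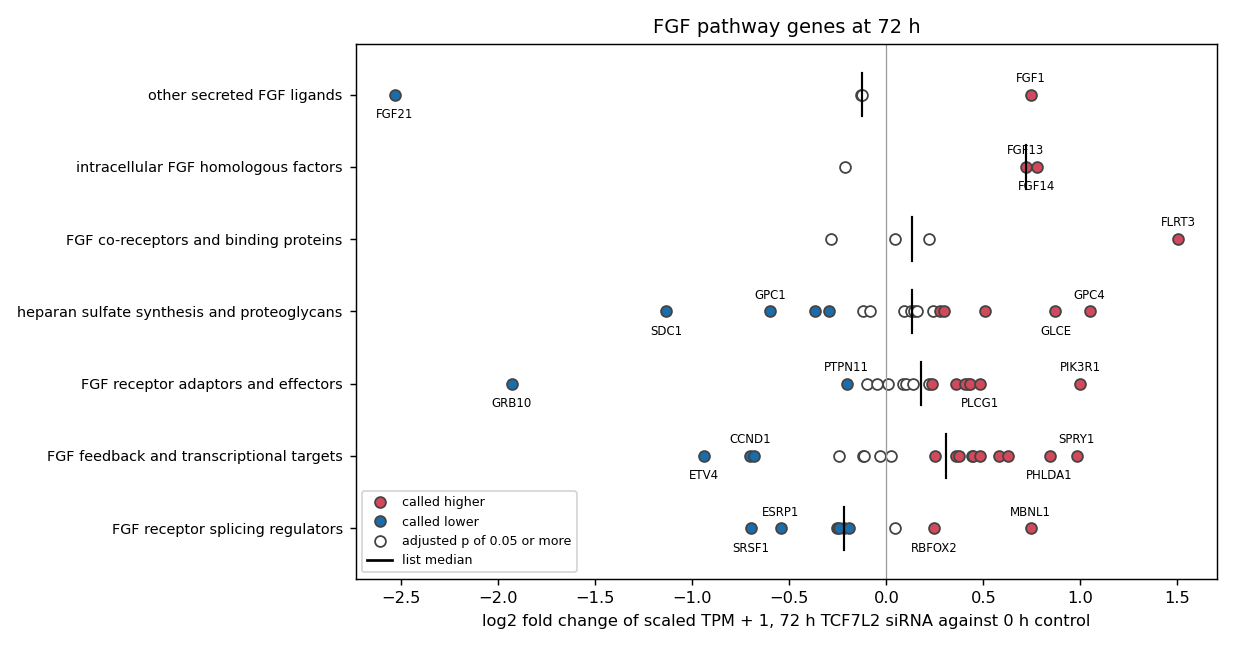
Log2 fold change of scaled TPM + 1 at 72 h against the 0 h control for the genes in the fit of 7 FGF pathway lists; red points were called higher, blue lower, open points had an adjusted p of 0.05 or more, and vertical bars are list medians. FGF21 at -2.53 and GRB10 at -1.93 lie farthest left and FLRT3 at 1.5 farthest right.

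Regulators of FGF receptor splicing, which decide between epithelial and mesenchymal receptor isoforms, were measured in 9 genes, and 2 rose and 5 fell at 72 h (median -0.22). On the TPM as deposited 1 rose and 6 fell. Among all genes 25.8% rose and 26.2% fell after scaling, and 10.5% rose and 31.2% fell on the TPM as deposited. ESRP1, the epithelial splicing regulator, had 36.7 and 28.7 TPM at 72 h, against 54.8 and 56.3 TPM at 0 h (-0.54 ± 0.05, limma adjusted p = 3.91e-05). SRSF1 fell by 0.70 ± 0.05 and ELAVL1, an RNA-binding protein gene, by 0.24 ± 0.05, while MBNL1 rose by 0.74 ± 0.07. The table gives 1 value per gene, so receptor isoforms were not analysed here.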

How the data were processed

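Total RNA of SW480 cells without ribosomal RNA was sequenced, per the labels' protocols. The authors deposited 1 table of TPM, from RSEM by the submitters' processing notes, which also name FastQC, Trimmomatic, STAR, Picard, SAMtools and build hg19. No source used here gives versions, annotation or strand settings, and the depth per sample is unknown. Genome positions and sequences are from GENCODE and RefSeq on GRCh38, matched by symbol (18409 of 18656 symbols; 9 of 9 members).

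The fit took the 11894 genes that reached a deposited TPM of 1 in 2 libraries. Libraries were divided by their median ratio to the mean log profile, and log2(TPM + 1) was fitted with limma 3.58.1 in R 4.3.3 over all 8 libraries (4 residual and 5.41 prior degrees of freedom, mean-variance trend). Tests are two-sided, adjusted by Benjamini-Hochberg over all kept genes at 0.05. Fold changes are on this log2(TPM + 1) scale and understate those of low genes. Without scaling the prior degrees of freedom were infinite, so every gene took its spread from the trend (median SE 0.162, against 0.0912 after scaling), so the scaled values are the main ones. The fit was tested on simulated data for the 72 h comparison, on 11894 genes with 200 changed. It recovered 83% of 1.5-fold, 99.5% of 2-fold and 100% of 4-fold changes. Of the unchanged genes it called 8, 20 and 12, in the same order. In the real comparison 52% of genes were called, so the simulation does not show recovery or false calls at such a share.

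The members, lists and tests were chosen with earlier results of these data known. Named genes are all members, list members called at 24 h, and up to 4 with the smallest p among those called at 72 h, plus the other FGF ligands in the fit. ETV1 and ETV5 were added beside ETV4 with their values known. Likeness used the 3 genes of highest r, of which 1 is not reported here. Alternatives were no scaling, quantile normalization, pseudocounts of 0.1 and 5, no filter, a minimum TPM of 5, fits of each pair of groups by itself, a block for the replicate number and each library left out.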

Additional observations from a re-analysis of the deposited data

Results flagged for a closer look

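The change against the same 0 h control differed between consecutive times of TCF7L2 siRNA in 5 genes, as tested by the comparison between those times. The control cancels from that difference. Its libraries still enter the scaling and the estimate of spread behind the p-values. The log2 difference at 48 h against 24 h was 0.74 for FGF20 and -0.60 for FGFRL1. At 72 h against 48 h it was 0.85 for FGF20, -1.14 for FGFRL1, -0.47 for FGF18, -0.46 for FGF19 and -0.39 for FGFR4. The limma adjusted p-values stand beside these genes in the report. FGF18 is the only one of the 5 whose call was lost in any of the 16 alternatives (3 of 15 that gave it a value).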

How the results depend on the processing

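FGF20, FGF19, FGFR4 and FGFRL1 at 72 h and FGF20 and FGFRL1 at 48 h, against 0 h, were called in all 16 alternatives. Their log2 ranges at 72 h were 1.67 to 1.95, -1.03 to -0.74, -0.75 to -0.48 and -1.95 to -1.67. Of 635 alternative values of the members, 595 kept direction and side of the threshold, 21 turned sign (none of a called value), 15 gained a call and 4 lost it. The cause of each change was not tested. On the TPM as deposited 55 genes were called at 24 h (45.5% higher, against 59.7% of 129), 922 at 48 h (of 2797 after scaling) and 597 at 48 h against 24 h (85.8% higher, against 53.9% of 1668), and 7 members at 72 h. At 72 h against 48 h 18.4% of calls were higher, against 51.3% after scaling. Signs turned there for FGF18 (-0.0257), FGFR1 (-0.09), FGFR4 (-0.0793) and FGFRL1 (-0.0867) at 24 h and for FGFR1 (0.0606) at 48 h against 24 h, and with quantile normalization for FGFRL1 at 24 h (-0.032). At 24 h 18 genes were called with no filter, and 194 genes and 1 member (FGF19, adjusted p = 0.0436) at a minimum TPM of 5.

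Leaving out 1 library each gave 4 to 296 genes at 24 h, 1358 to 3147 at 48 h and 622 to 1955 at 48 h against 24 h, and 0 to 1 members at 24 h. At 24 h the ranges were -0.0559 to 0.0583 for FGFR1, -0.0109 to 0.0411 for FGFR4 and -0.0495 to 0.0706 for FGFRL1. At 48 h they were -0.234 to 0.0877 for FGF9, -0.0874 to 0.0389 for FGFR1 and -0.0546 to 0.217 for FGFR3. At 48 h against 24 h they were -0.145 to 0.177 for FGF9 and -0.0906 to 0.0358 for FGFR1, and at 72 h against 48 h -0.254 to 0.0682 for FGF9. FGFR3 was called at 48 h against 24 h without the second 24 h library (adjusted p = 0.0389).

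Libraries share replicate numbers, but the correlations of their deviations were -0.085 to 0.106, and the labels tie no numbers together. With the replicate block, 91 genes were called at 24 h, 2707 at 48 h and 6141 at 72 h, and FGFR1 gained a call in the comparisons of 72 h with 0 h (adjusted p = 0.0282) and with 48 h (0.0498). With 2 libraries per group and no read depth, FGFR2 and other genes below 1 TPM could not be judged.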
